A study of Homo sapiens with 6 samples.

Results

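The genes described here were the 9 subunits of the ionotropic glutamate receptors that were named for the RNA-seq of PSF knockdown: GRIA2, GRIA3 and GRIA4 of the AMPA class, GRIK2, GRIK3 and GRIK5 of the kainate class, GRIN1 and GRIN2D of the NMDA class, and GRID1 of the delta class. They were picked by gene symbol from the 21301 genes of the deposited table, and all 9 were among the 19694 genes that passed the filter on low counts. SH-SY5Y, a human neuroblastoma cell line with neuron-like features, was transfected for 72 h at 10 nM with a control siRNA (siControl) or with a single siRNA, siPSF #2, against PSF, and 3 libraries per group were sequenced as biological triplicates. PSF, encoded by SFPQ, is a DNA- and RNA-binding protein of the nuclear paraspeckles, and the knockdown was made to find the genes that depend on it. Because 1 siRNA was used, effects of the lowered PSF and effects of that siRNA on other transcripts cannot be told apart. The same table held 3 more genes of the family, GRIK4, GRIN2C and GRIN3B, and the other genes of the family were not analysed here.

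Ionotropic glutamate receptors are tetrameric cation channels that open when glutamate, or for some subunits glycine or D-serine, binds outside the cell, and they carry most of the fast excitation in the brain. AMPA receptors give the fast current, and the GRIA2 subunit keeps most of the calcium out once its transcript has been edited. Kainate receptors need a subunit of the GRIK1 to GRIK3 group to form a channel, to which GRIK4 or GRIK5 adds high affinity. NMDA receptors need GRIN1 together with a GRIN2 or GRIN3 subunit, and the delta receptors act mainly as postsynaptic partners of the secreted cerebellins.

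The target itself was lowered. CPM are a gene's reads scaled to a common library total, after the totals were adjusted between libraries by TMM. SFPQ was at 377 ± 23.1 CPM (mean ± SD, n = 3) with siControl and at 189 ± 22.3 with siPSF. That corresponded to a log2 fold change of -0.99 (SE 0.10, adjusted p = 9.5e-05). This and the adjusted p-values below came from edgeR (quasi-likelihood test), adjusted by Benjamini-Hochberg across the 19694 genes. A gene was called where its adjusted p was under 0.05. Library totals ran from 119019293 to 132420931 reads with siControl and from 101540520 to 120627283 with siPSF. The 11 adrenergic neuroblastoma markers were all in the table and summed to 5952 to 6678 CPM with siControl and 5419 to 6534 with siPSF, with DBH and TH called lower and GATA3 called higher. Of 7 mesenchymal markers, 6 were in the table and summed to 207 to 223 CPM against 176 to 216, with FN1 called lower, and of 8 glial and fibroblast markers, 4 were in the table and summed to 8.66 to 8.97 CPM against 5.96 to 10.0, with COL3A1 called lower and the glial markers GFAP, AQP4 and SOX10 absent from the table. The part of these lists in the changes of the receptor genes was not tested. The library siPSF replicate 3 stood apart from the other siPSF libraries in several genes, with CHGA at 1019 CPM against 517 and 534. The receptor genes that it moved most are therefore given below also without it. In a chi-square between libraries (per degree of freedom), siControl replicate 3 differed from the other siControl libraries too, at 61.2 and 57.1. Those were 33.5 from each other. For siPSF replicate 3 the values were 54.4 and 59.9, against 20.8 between the other siPSF libraries.

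Of the 9 subunits, 3 were called lower after siPSF (GRIK2, GRIA4 and GRID1), 1 was called higher (GRIN1) and 5 were not called. Over all genes tested, 8.27% were called lower and 6.65% higher. The siControl and siPSF libraries did not overlap in 3 subunits that were lower and in 2 that were higher, GRIN1 and GRIA3, and overlapped in the other 4; over all genes tested, 17.8% had groups apart with siPSF lower and 16.7% with siPSF higher. The median log2 fold change of the 9 subunits was -0.14, and that of all genes tested was 0.01. In RNA from whole cultures, fewer cells that express a gene and less of its RNA per cell cannot be told apart, and the p-values measure the spread between these 3 cultures per group.

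**Figure D1:**
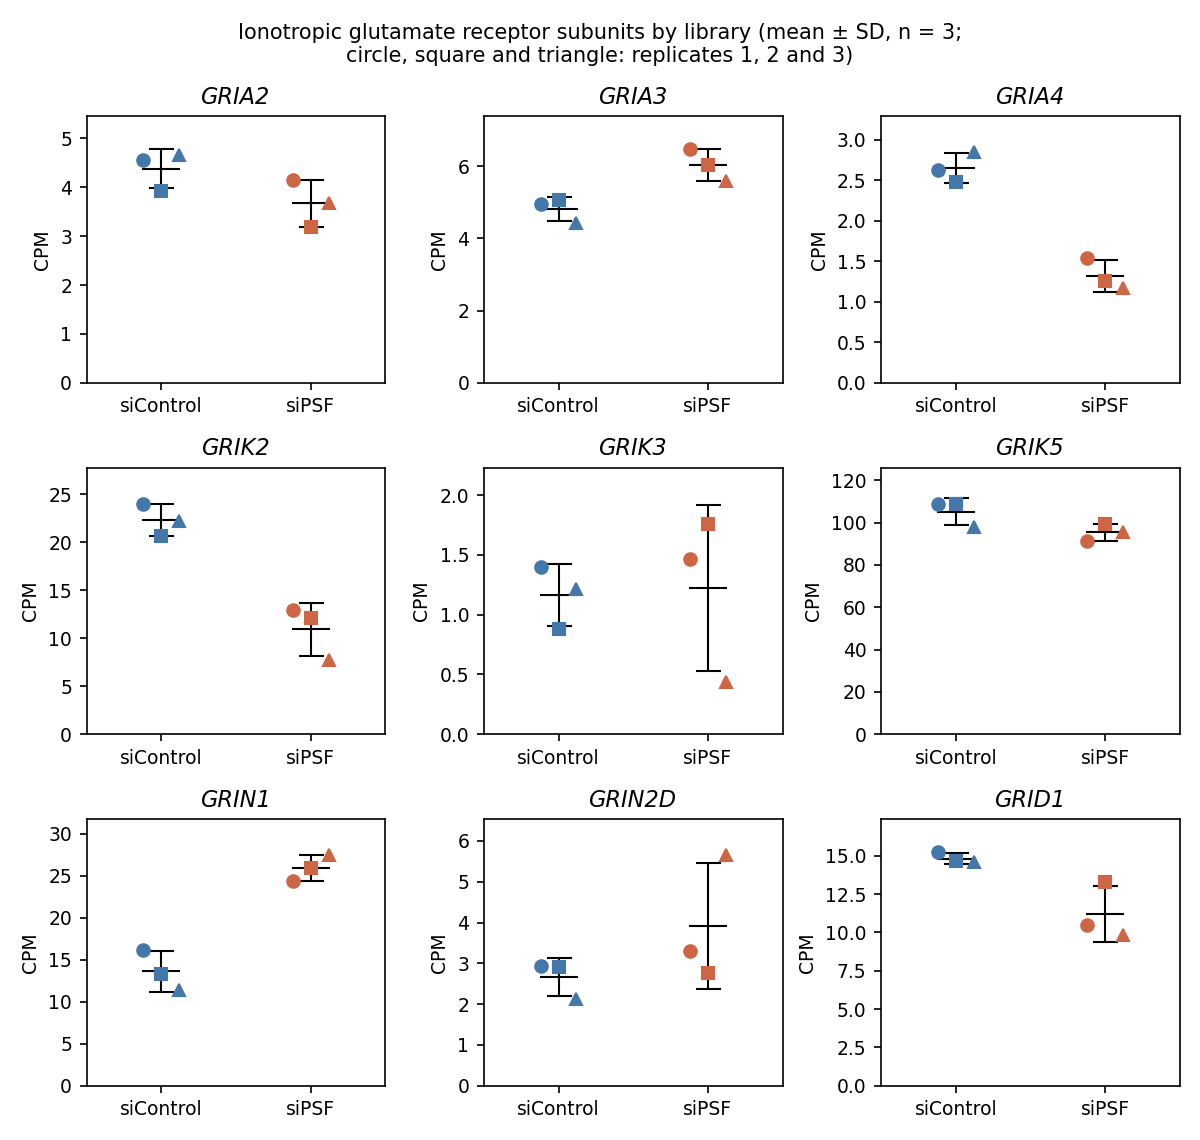
CPM (y axis, from 0) of each of the 9 subunits in the 3 siControl and 3 siPSF libraries, with the mean and SD of each group as bars. GRIK2, GRIA4 and GRID1 lie lower and GRIN1 and GRIA3 higher in all 3 siPSF libraries, whereas the groups overlap for GRIA2, GRIK3, GRIK5 and GRIN2D.

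The starts of the subunit genes were read from the RefSeq promoter table (GRCh38.p14), which gives 250 bases before to 50 bases after an annotated start and held 11 entries for 6 of the 9 subunits; GRIA3, GRIN1 and GRID1 had none. GRIK2, the called subunit with the lowest fold change, is shown first. GRIA4, the subunit called lower with nearly the same change, and GRIK5, the most abundant subunit, which was not called, were added for comparison after their values were known. Lower-case letters are the sequence 5′ to 3′ on the strand of the gene, and capitals mark a GC box (GGGCGG on either strand, so also CCGCCC), a motif bound by Sp1-type factors. GRIK2 lies on the plus strand at chr6:101393458-101393757, GRIA4 on the plus strand at chr11:105609744-105610043 and GRIK5 on the minus strand at chr19:42070157-42070456.
GRIK2: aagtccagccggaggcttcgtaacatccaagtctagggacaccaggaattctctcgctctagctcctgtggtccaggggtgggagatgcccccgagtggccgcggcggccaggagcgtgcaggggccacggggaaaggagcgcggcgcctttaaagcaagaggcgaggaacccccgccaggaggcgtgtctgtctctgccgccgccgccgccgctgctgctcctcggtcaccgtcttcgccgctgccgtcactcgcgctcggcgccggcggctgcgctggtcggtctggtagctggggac
GRIA4: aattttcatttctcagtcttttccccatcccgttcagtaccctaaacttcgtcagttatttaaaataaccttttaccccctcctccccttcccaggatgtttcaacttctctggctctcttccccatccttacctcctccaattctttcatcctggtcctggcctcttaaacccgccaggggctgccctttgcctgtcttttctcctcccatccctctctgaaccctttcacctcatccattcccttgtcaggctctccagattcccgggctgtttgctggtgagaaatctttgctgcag
GRIK5: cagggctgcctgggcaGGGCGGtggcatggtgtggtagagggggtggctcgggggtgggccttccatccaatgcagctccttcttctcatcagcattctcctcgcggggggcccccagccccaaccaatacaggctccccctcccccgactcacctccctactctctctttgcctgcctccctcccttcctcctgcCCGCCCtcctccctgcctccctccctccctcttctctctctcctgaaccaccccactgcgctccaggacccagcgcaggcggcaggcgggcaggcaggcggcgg
The GRIK5 window held 2 GC boxes and was 69.0% G and C. The GRIK2 window held none although it was 69.3% G and C, and the GRIA4 window held none at 49.7%. None was found in the other annotated starts of these genes either. These were 1 more for GRIK2 (54.3% G and C) and 2 more for GRIA4 (64.7% and 58.0%). A GC box was present in at least 1 entry of GRIA2, GRIK3, GRIK5 and GRIN2D, that is in 5 of the 11 entries, and in 44.95% of the 35116 promoters of the table. The 2 GRIA2 entries among those 5 overlap, and both hold the same GC box. TATAAA, searched on both strands, was in no entry of the 6 subunits and in 11.53% of all promoters. These matches describe the letters in the windows and not sites in use.

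Among the kainate subunits, GRIK2 fell to 48.9% of its siControl level. GRIK2 encodes the pore-forming GluK2 subunit and lies on chr6:101393708-102070083, 676.4 kb with 17 exons in its main transcript. It was at 24.0, 20.7 and 22.3 CPM in the siControl libraries and at 13.0, 12.1 and 7.72 in the siPSF libraries. All siPSF values were below all siControl values, and siPSF replicate 3 was the lowest of them. The log2 fold change was -1.03 (SE 0.16; adjusted p = 0.0016), and without siPSF replicate 3 it was -0.83 (adjusted p = 1.3e-04). Leaving out any other library gave values between -1.17 and -0.98, and the call held each time.

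GRIK5 encodes the high-affinity partner subunit GluK5 and was the most abundant subunit by far. It lies on chr19:41998324-42070206 (71.9 kb, minus strand, 20 exons). Its CPM was 108.6, 109.0 and 97.9 with siControl and 91.5, 99.6 and 95.4 with siPSF. The groups overlapped, since siPSF replicate 2 lay above siControl replicate 3. The log2 fold change was -0.14 (SE 0.08; adjusted p = 0.28), which the test did not call. ZNF574, a zinc finger gene on the opposite strand, overlaps GRIK5 by 1730 bp and was at 23.0 CPM with siControl and 26.1 with siPSF (log2 fold change 0.18, adjusted p = 0.27). The labels name a stranded library kit and the methods another kit, and whether counting used the strand is not given in the sources used here, so it is not known to which of these genes reads in that overlap were counted.

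GRIK3, which encodes GluK3, was the least abundant of the 9. It lies on chr1:36795527-37034515 (239.0 kb, minus strand, 16 exons). It was at 1.40, 0.884 and 1.22 CPM with siControl and at 1.47, 1.76 and 0.436 with siPSF. The siPSF libraries held both the highest values and the lowest value, from 186 reads in replicate 2 to 43 in replicate 3. This gave a log2 fold change of 0.07 (SE 0.38; adjusted p = 0.92) and -0.28 to 0.47 when single libraries were left out, with 0.47 (adjusted p = 0.18) without siPSF replicate 3. Its direction was therefore not determined by these libraries.

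GRIK4, the second high-affinity partner, was outside the 9 and had few reads, 7 to 107 per library. It was at 0.617 ± 0.163 CPM with siControl and 0.298 ± 0.203 with siPSF, and the groups did not overlap. This corresponded to a log2 fold change of -1.03 (SE 0.46; adjusted p = 0.16). It was not called, and leaving out single libraries gave values from -1.502 to -0.58. The value of -0.58 (adjusted p = 0.23) was the one without siPSF replicate 3, which held the 7 reads.

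Among the AMPA subunits, 1 was called lower, 1 had siPSF libraries above all siControl libraries without passing the test, and 1 overlapped. GRIA4 encodes GluA4, the subunit of the fastest AMPA channels, and lies on chr11:105609994-105982090 (372.1 kb, plus strand, 17 exons). Its CPM was 2.63, 2.47 and 2.85 with siControl and 1.54, 1.26 and 1.17 with siPSF. Each siPSF library was below the lowest siControl library. GRIA4 fell to 49.9% of its siControl level, with a log2 fold change of -1.001 (SE 0.18; adjusted p = 0.0030) and a range of -1.13 to -0.92 when single libraries were left out, called in 6 of 6 such fits.

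GRIA3 encodes GluA3 and lies on chrX:123184278-123490915 (306.6 kb, plus strand, 16 exons). It was at 4.96, 5.07 and 4.43 CPM with siControl and at 6.49, 6.03 and 5.59 with siPSF. All 3 siPSF libraries were above the siControl libraries, with a gap narrower than the range within either group. The log2 fold change was 0.33 (SE 0.13; adjusted p = 0.11), which was not called. On FPKM, the deposited level per transcript length and library total, limma called it higher (difference of 0.53 on the log2(FPKM + 0.5) scale; adjusted p = 0.015), where 4.96% of the 14830 genes tested on that scale were called higher. The difference between the scales is taken up with the implied transcript lengths below.

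GRIA2 encodes GluA2, the subunit that limits calcium entry, and lies on chr4:157220120-157366075 (146.0 kb, plus strand, 16 exons). Its CPM was 4.56, 3.92 and 4.67 with siControl and 4.15, 3.19 and 3.67 with siPSF. The groups overlapped, since siPSF replicate 1 was above siControl replicate 2. GRIA2 had a log2 fold change of -0.25 (SE 0.15; adjusted p = 0.28). It was below 0 in each fit that left out a library, between -0.35 and -0.16, and was called in none.

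Among the NMDA subunits, the obligatory GRIN1 rose to 190.5% of its siControl level. GRIN1 encodes GluN1, without which no NMDA receptor reaches the surface, and is the shortest gene of the 9 (chr9:137139154-137168756, 29.6 kb, plus strand, 20 exons). It was at 16.2, 13.3 and 11.4 CPM with siControl and at 24.4, 25.9 and 27.5 with siPSF. The lowest siPSF library was well above the highest siControl library. Its log2 fold change was 0.93 (SE 0.13; adjusted p = 6.4e-04), and it was 0.81 to 1.07 when single libraries were left out, called in 6 of 6 fits.

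GRIN2D encodes GluN2D, a partner of GluN1 that is typical of immature neurons, and lies on chr19:48393668-48444931 (51.3 kb, plus strand, 14 exons). Its CPM was 2.94, 2.91 and 2.14 with siControl and 3.30, 2.76 and 5.66 with siPSF. Only siPSF replicate 3 stood clearly above the other 5 libraries. The log2 fold change was 0.55 (SE 0.24; adjusted p = 0.15) with all libraries and 0.19 (adjusted p = 0.54) without siPSF replicate 3. KDELR1, a gene on the opposite strand that overlaps GRIN2D by 3745 bp, was at 95.5 ± 7.67 CPM with siControl and 110.5 ± 5.90 with siPSF (log2 fold change 0.21, adjusted p = 0.13), and the same limit holds for reads in that overlap.

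The NMDA genes outside the 9 were at low levels. GRIN3B, which encodes a glycine-binding subunit that lowers calcium entry, was at 0.229 ± 0.057 CPM with siControl and 0.482 ± 0.099 with siPSF, from 21 to 59 reads per library, with a log2 fold change of 1.07 (SE 0.32; adjusted p = 0.041). That call was lost in 6 of 11 alternative fits. TMEM259, a gene on the opposite strand, overlaps GRIN3B by 80 bp and was at 161.5 ± 19.6 CPM with siControl and 183.6 ± 8.54 with siPSF. Its log2 fold change was 0.18 (adjusted p = 0.23). To which of these genes reads in that overlap were counted is not known, which matters most at the few reads of GRIN3B. GRIN2C, a partner of GluN1 known from the cerebellum, was at 1.61 ± 0.310 CPM with siControl and 3.50 ± 2.08 with siPSF, and the groups overlapped (log2 fold change 1.119, SE 0.36, adjusted p = 0.057). The GRIN2C value depended on single siPSF libraries, which were at 3.47, 5.59 and 1.43 CPM: it was 1.49 (adjusted p = 1.9e-04) without replicate 3 and 0.61 (adjusted p = 0.22) without replicate 2. All 4 NMDA genes in the table had log2 fold changes above 0, where the median of all genes tested was 0.01. GRIN1 and GRIN3B were called higher, as were 6.65% of all genes tested. Among the 4, only GRIN1 was called in each fit that left out a library.

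GRID1, which encodes the delta receptor GluD1, was called lower close to the threshold. It is the longest gene of the 9 (chr10:85599552-86366795, 767.2 kb, minus strand, 16 exons). It was at 15.2, 14.6 and 14.6 CPM with siControl and at 10.5, 13.3 and 9.83 with siPSF. The siControl libraries were nearly equal, and siPSF replicate 2 came closest to them. Over all libraries the log2 fold change was -0.40 (SE 0.13; adjusted p = 0.049). The call did not hold in 5 of the 6 fits that left out a library (adjusted p from 0.093 to 0.16 in those 5). It did not hold without the filter on low counts either (adjusted p = 0.065). The log2 fold change was between -0.55 and -0.32 when single libraries were left out, with -0.32 (adjusted p = 0.093) without siPSF replicate 3.

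The levels of different genes can be compared only per length, for which the deposited FPKM were used. With siControl the order was GRIK5 at 23.0 ± 0.553 FPKM, GRIK2 at 4.33 ± 0.298, GRIN1 at 3.09 ± 0.462, GRID1 at 2.33 ± 0.0173, GRIA3 at 1.40 ± 0.184, GRIA4 at 0.520 ± 0.0749, GRIA2 at 0.503 ± 0.0110, GRIN2D at 0.469 ± 0.0712 and GRIK3 at 0.114 ± 0.0261 (mean ± SD, n = 3). GRIA4, GRIA2 and GRIN2D overlapped with their neighbours in this order, and the other neighbours did not. With siPSF, GRIN1 at 5.54 ± 0.231 FPKM stood in place 2 instead of 3, GRIA3 at 2.24 ± 0.271 in place 3 instead of 5 and GRIK2 at 2.02 ± 0.534 in place 4 instead of 2. The siPSF libraries of GRIA3, GRIK2 and GRID1 (1.67 ± 0.262) overlapped, so places 3 to 5 were not separated. The transcript length implied by the count and FPKM of GRIA3 was also shorter with siPSF, as given below. GRIK5 remained the highest at 20.1 ± 0.820 and GRIK3 the lowest at 0.114 ± 0.0648. On FPKM the GRIK5 groups did not overlap (22.4 to 23.4 with siControl, 19.5 to 21.0 with siPSF), unlike on CPM. On log2(FPKM + 0.5), limma did not call GRIK5 (-0.19, adjusted p = 0.095). The FPKM were not scaled by TMM, and the median difference over the 14830 genes tested on that scale was -0.06. Summed over the named subunits, the kainate class was at 27.4 ± 0.590 FPKM with siControl and 22.2 ± 1.14 with siPSF, the AMPA class at 2.42 ± 0.167 and 2.86 ± 0.404, and the NMDA class at 3.56 ± 0.519 and 6.19 ± 0.463. The exact permutation test gave p = 0.1, 0.2 and 0.1, respectively (two-sided), and with 3 libraries against 3 it cannot give less than 0.1. The AMPA sums overlapped between the groups. They include GRIA3 with its shorter implied length after siPSF, and were not recomputed with 1 fixed length per gene.

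GRIA3 made up more of the AMPA class in every siPSF library. The share of GRIA3 in the summed AMPA FPKM was 56.2%, 62.1% and 54.5% with siControl and 73.9%, 83.1% and 78.7% with siPSF. All siPSF shares were higher, by 21.0 percentage points on average. GRIA4 made up 21.1%, 18.4% and 25.1% with siControl and 10.8%, 7.44% and 7.94% with siPSF, and GRIA2 went from a mean of 20.9% ± 1.67 to 12.7% ± 3.02, again without overlap. Within the kainate class, the share of GRIK2 was 16.2%, 14.6% and 16.5% with siControl and 10.97%, 9.49% and 6.69% with siPSF, with GRIK5 making up nearly all of the rest (83.8% ± 1.10 and 90.5% ± 2.42). The share of GRIN1 in the NMDA sum was 86.8% ± 1.18 and 89.6% ± 3.29 and overlapped between the groups. Of the 7 shares, 5 reached the smallest p that the exact permutation test allows (p = 0.1, two-sided; 0.14 after Benjamini-Hochberg adjustment over the 7), so none can pass a threshold of 0.05. Shares of a class sum to 100% and cover only the subunits named here.

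**Figure D2:**
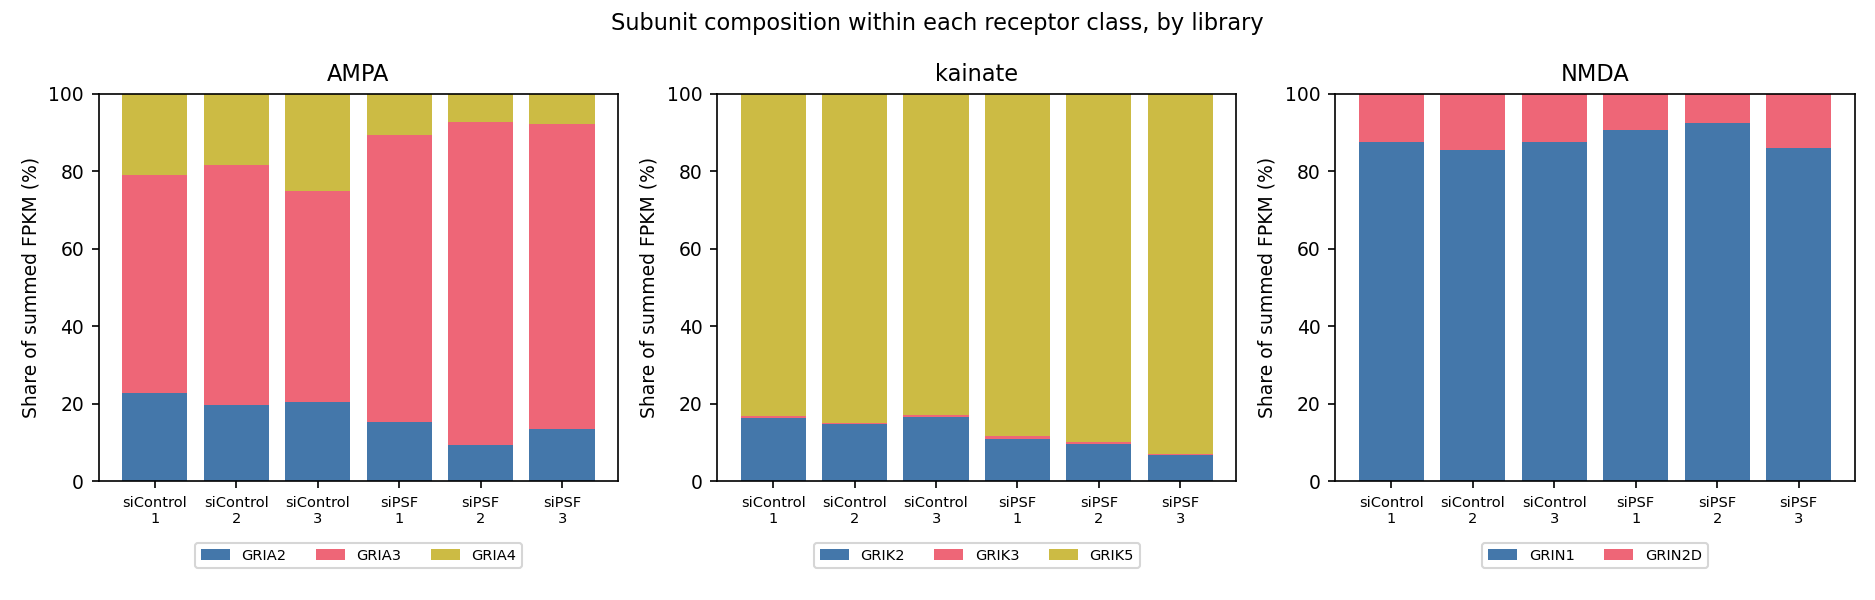
Share of each subunit (y axis, % of the summed FPKM of the named subunits of its class) in each of the 6 libraries, for the AMPA, kainate and NMDA classes. GRIA3 takes 54.5% to 62.1% of the AMPA sum in the siControl libraries and 73.9% to 83.1% in the siPSF libraries, and GRIK2 takes 14.6% to 16.5% and 6.69% to 10.97% of the kainate sum.

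Counts and FPKM of 1 gene in 1 library also give an implied transcript length, as the count over the product of FPKM and library total. It is the length by which reads were divided only if the FPKM were made from these counts. Whether they were is not given in the sources used here. For 6 of the 9 subunits this implied length was nearly constant, with the siPSF mean at 98.7% to 100.8% of the siControl mean. For GRIA3 it was 3.99, 3.18 and 3.55 kb with siControl and 2.66, 2.44 and 2.81 kb with siPSF. All siPSF values were shorter, the mean being 73.8% of that with siControl, and of the 13115 genes with 200 or more reads in every library 0.244% had a mean at least as far from 100% (in ratio). Groups that do not overlap in implied length were found in 9.41% of those genes. GRIA2 varied within the groups too, at 9.09, 7.81 and 10.0 kb with siControl and 8.17, 11.4 and 10.9 kb with siPSF (113.1%), and the groups overlapped. GRIA4 ranged from 4.96 to 5.66 kb and from 4.32 to 5.82 kb with nearly equal means (99.9%). Among the 9, the implied length thus varied most between libraries in the 3 AMPA genes.

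**Figure D3:**
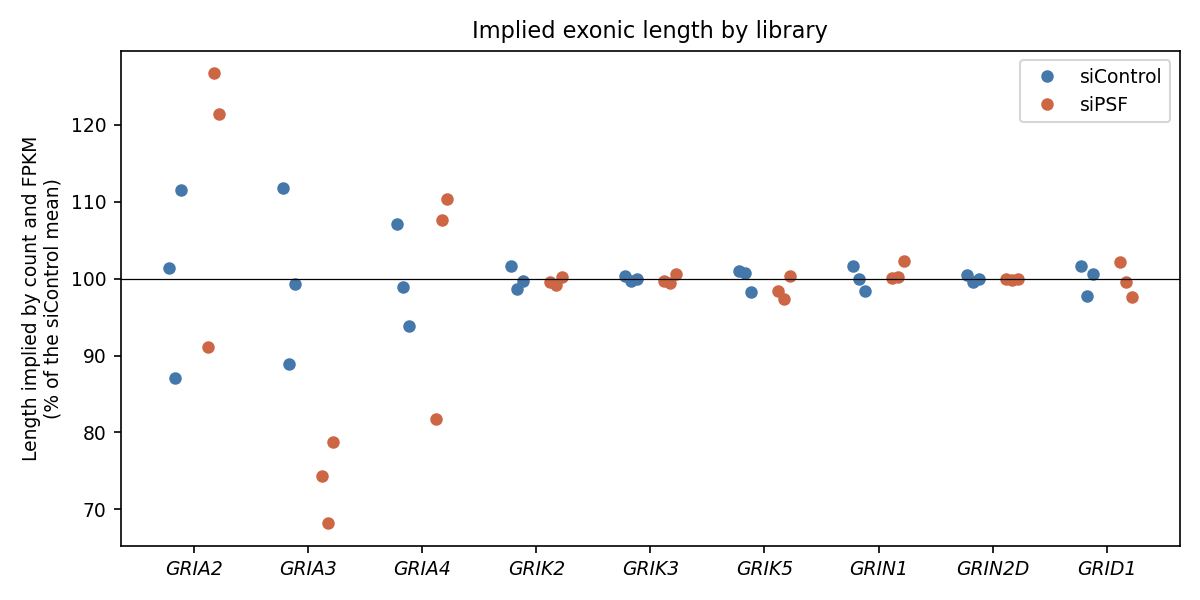
Length implied by count and FPKM (y axis, % of the siControl mean of that gene) in each library for the 9 subunits. The 3 siPSF points of GRIA3 lie below its siControl points, GRIA2 and GRIA4 scatter in both groups, and the other 6 subunits stay close to 100%.

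A shorter implied length corresponds to a higher FPKM for the same number of reads, and for GRIA3 the difference on the FPKM scale was the larger one. With 1 fixed length per gene, the share of GRIA3 in the AMPA sum was 62.9% with siControl and 76.3% with siPSF, a difference of 13.4 percentage points in place of 21.0. The GRIA4 share then differed by -9.93 points and the GRIA2 share by -3.44, in place of -12.8 and -8.16. The kainate shares moved little, with GRIK2 at -6.64 points in place of -6.74. The table has 1 row per gene, so whether the transcripts in use differed was not analysed here.

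The called subunits also differed in gene length. Lengths came from RefSeq (GRCh38.p14). Of the 4 subunits of 300 kb or more (GRID1, GRIK2, GRIA4 and GRIA3), 3 were called lower, where 47.3% of the 615 tested protein-coding genes of that length were called lower. Neither of the 2 from 100 to 300 kb (GRIK3 and GRIA2) and neither of the 2 from 30 to 100 kb (GRIK5 and GRIN2D) was called. GRIN1, the 1 subunit under 30 kb, was called higher, as were 8.97% of 7166 protein-coding genes of that length. The median log2 fold change of protein-coding genes was 0.07 under 30 kb, 0.00 from 30 to 100 kb, -0.13 from 100 to 300 kb and -0.44 from 300 kb on. Beside the last of these, GRIK2 at -1.03 and GRIA4 at -1.001 were lower, GRID1 at -0.40 was near the median, and GRIA3 at 0.33 was above it. Spearman's rho between gene length and log2 fold change was -0.80 over the 9 subunits, -0.89 over the 12 family genes in the table and -0.30 over 14416 protein-coding genes. These correlations are across genes measured in the same 6 libraries, and genes are not independent replicates. For the NMDA genes, length and receptor class cannot be told apart, since they are the shortest family genes in the table. The kainate genes ran from 71.9 kb (GRIK5) to 676.4 kb (GRIK2) and the AMPA genes from 146.0 kb (GRIA2) to 372.1 kb (GRIA4). The part of length within these classes was not tested.

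**Figure D4:**
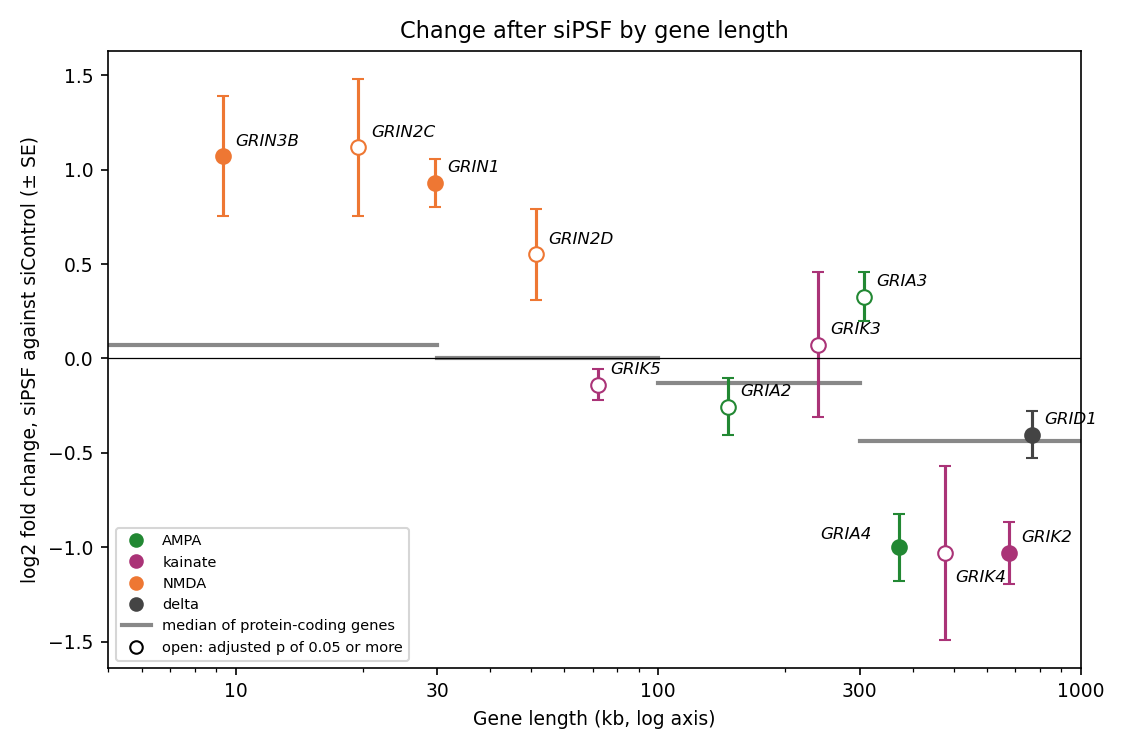
Log2 fold change after siPSF (y axis, ± SE) against gene length (x axis, kb, log axis) for the 12 family genes in the table, coloured by class, with filled points for adjusted p under 0.05 and grey lines for the median of protein-coding genes in 4 length classes. The 4 NMDA genes, from 9.31 to 51.3 kb, lie above 0, and GRIK2, GRIA4, GRIK4 and GRID1, from 372.1 to 767.2 kb, lie below it.

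Genes that work with these receptors were taken from 6 lists of 74 genes, of which 57 were tested, 10 called lower, 4 called higher and 43 not called, where the shares over all genes tested were 8.27% lower and 6.65% higher. Their median log2 fold change was -0.01. The genes called lower differed in length. KALRN (693.0 kb), ADARB2 (560.2 kb) and CNIH3 (305.9 kb) were above 300 kb, where 47.3% of protein-coding genes were called lower. SLC1A2, NOS1, ADARB1 and CBLN2 lay between 100 and 300 kb, where the share was 18.8%. CACNG4, CACNG5 and CBLN4 were under 100 kb, where it was 4.6%. The part of gene length in these calls was not tested. Among 14 auxiliary and assembly proteins of AMPA receptors, 3 were called lower and 1 higher, with a median of -0.11. CACNG4, a transmembrane auxiliary subunit (TARP) that slows AMPA channel closing, fell from 554 ± 63.4 to 297 ± 12.3 CPM (log2 fold change -0.90, SE 0.10, adjusted p = 1.6e-04). CNIH3, a cornichon that exports AMPA receptors to the surface, fell from 4.56 ± 0.380 to 2.02 ± 0.274 CPM (log2 fold change -1.17, SE 0.16, adjusted p = 5.9e-04). The TARP CACNG5 fell by 0.60 on the log2 scale (adjusted p = 0.0059), whereas the TARP CACNG8 rose by 0.38 (adjusted p = 0.028), from 12.6 ± 0.771 to 16.4 ± 0.893 CPM. The called TARPs thus moved in both directions.

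Of 6 tested partners of kainate and delta receptors, 2 were called lower and none higher (median -0.17). Both encode cerebellins, a family of secreted proteins whose members bridge presynaptic neurexins and delta receptors. CBLN2 was at 8.40, 11.4 and 13.5 CPM with siControl and at 5.64, 5.99 and 6.69 with siPSF (log2 fold change -0.86, adjusted p = 0.0044), and CBLN4, from 32 to 130 reads per library, fell by 1.37 on the log2 scale (adjusted p = 0.0064).

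Of the 3 RNA editing enzymes, 2 were called lower. ADARB1 (ADAR2) edits the GRIA2 transcript at the codon that sets calcium entry, and edits GRIK2 too. It was at 13.1, 14.6 and 15.2 CPM with siControl and at 10.7, 10.0 and 9.44 with siPSF. The groups did not overlap, and the log2 fold change was -0.51 (SE 0.11; adjusted p = 0.0096). ADARB2, a brain paralogue with no known editing activity, was low, at 17 to 113 reads per library, and fell by 1.91 on the log2 scale (adjusted p = 8.6e-04). Editing itself cannot be read from counts per gene.

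Below the receptors, 2 of 12 tested genes of calcium signalling were called lower and 2 higher (median -0.06). KALRN, a guanine nucleotide exchange factor of dendritic spines, fell from 54.9 ± 5.77 to 27.8 ± 2.16 CPM (log2 fold change -0.98, SE 0.10, adjusted p = 1.4e-04). NOS1, the neuronal nitric oxide synthase coupled to NMDA receptors, fell by 0.79 on the log2 scale (adjusted p = 0.0048). CAMK2B and CAMK2A encode subunits of the calcium/calmodulin kinase that binds NMDA receptors, and both rose, by 0.83 (adjusted p = 0.0040; 3.27 ± 0.584 to 5.83 ± 0.419 CPM) and by 1.25 (adjusted p = 0.013; 40 to 122 reads per library). Of 14 tested trafficking and anchoring proteins, only EPB41L1, a cytoskeletal linker of AMPA receptors, was called (higher, log2 fold change 0.36, adjusted p = 0.018; median of the list 0.15). Of 8 tested genes of glutamate and co-agonist handling, only SLC1A2, the glial-type glutamate transporter, was called (lower, -0.55, adjusted p = 0.043; median -0.06).

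**Figure D5:**
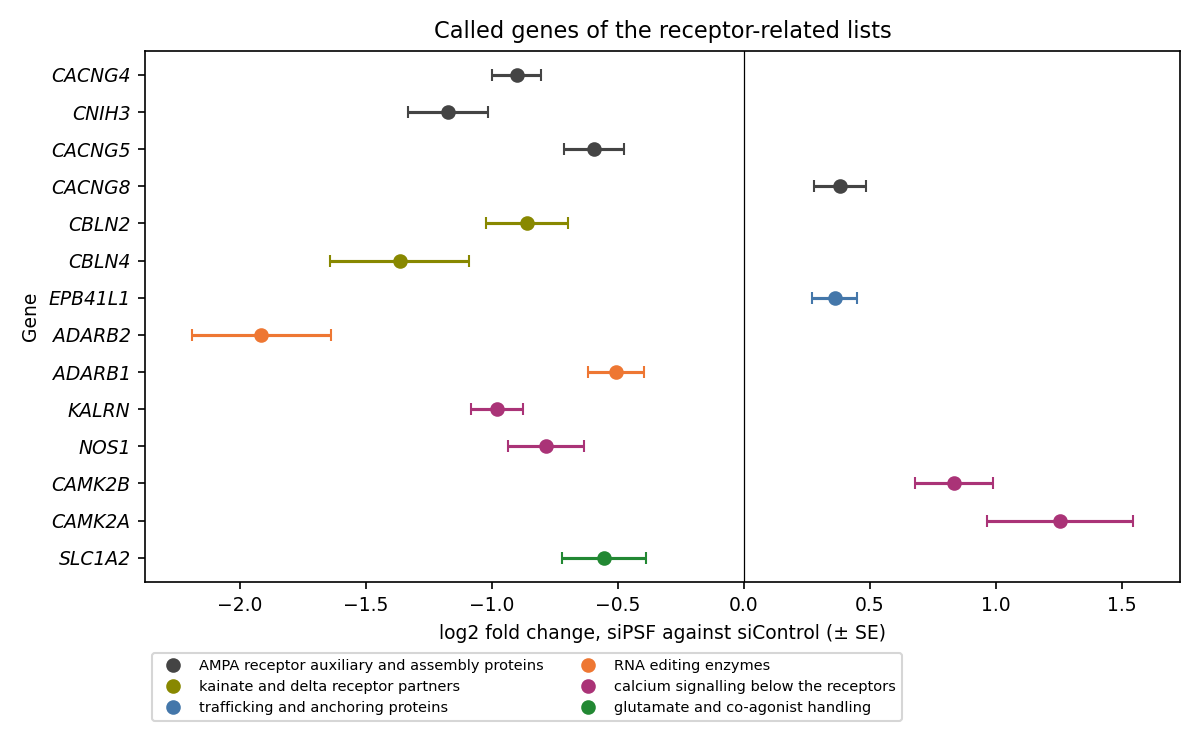
Log2 fold change after siPSF (x axis, ± SE) of the 14 called genes of the 6 receptor-related lists, coloured by list. ADARB2 at -1.91 and CBLN4 at -1.37 lie lowest and CAMK2A at 1.25 highest, and the AMPA auxiliary genes lie on both sides of 0.

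Among 14679 genes whose mean reached 1 CPM, those with the pattern closest to GRIN1 over the 6 libraries were RPL7P23, RPL7P1 and RPL15, at root mean square differences of 0.071, 0.071 and 0.072 in log2 CPM after each gene was centred on its siControl mean. RPL15 encodes a protein of the large ribosomal subunit, and the RPL7 entries are pseudogenes whose reads can come from near-identical copies. Closest to GRIK2 were LOC101927855, LOC105373880 and BDKRB2, the bradykinin B2 receptor gene, at 0.057, 0.096 and 0.097. As in GRIK2, the lowest value of each of these 3 was in siPSF replicate 3, with BDKRB2 at 2.201 CPM against 4.66 and 3.90 in the other siPSF libraries. The 3 genes were picked for likeness to GRIK2 over these same libraries, so the shared lowest library follows from that choice.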

How the data were processed

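RNA-seq was carried out on poly(A) RNA of SH-SY5Y cells, 3 siControl and 3 siPSF libraries. The authors deposited a read count and an FPKM per gene and library in 1 table. Per the methods, reads were mapped to hg38 with TopHat and counted on RefSeq genes; the submitters' processing notes name Trimmomatic, HISAT2 2.1.0, StringTie 2.1.3b and GRCh38. Which of them made the values, and whether counting used strand, is not given in the sources used here. The smallest count in the table is 1. Genes with no read in a library may therefore be missing from it, and genes outside it were not analysed here.

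Counts were filtered with filterByExpr, scaled with TMM and tested with edgeR 4.0.16 (quasi-likelihood, siPSF against siControl, no block) on R 4.3.3; p-values were adjusted by Benjamini-Hochberg over 19694 genes, with a threshold of 0.05. FPKM served for levels between genes, shares and implied lengths, and as a second scale (limma 3.58.1 on log2(FPKM + 0.5), mean FPKM of at least 0.5). Shares were compared with exact permutation tests over libraries. Alternatives were DESeq2 1.42.0, other scalings, no filter, another pseudocount and leaving out single libraries. The fit was tested on simulated data.

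The subunits and lists were chosen with earlier results of these data known. Named were all 9 subunits, the other family genes in the table, SFPQ, up to 3 called genes per list and direction by smallest p, annotated overlapping genes in the table, and the 3 nearest patterns to the called subunit with the smallest p in each direction. The length classes and the 3 further family genes were added after the values were seen. A promoter was to be printed for the called subunit with the largest change in each direction; a planned protein stretch was not used here.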

Additional observations from a re-analysis of the deposited data

How the results depend on the processing

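GRIK2, GRIA4 and GRIN1 kept their direction and their call in each fit that could test them (14, 11 and 14 alternatives), and the count of subunits called lower was 2 or 3 throughout. The subunits called higher numbered 2 with limma on log2(FPKM + 0.5), on log2(FPKM + 0.1) and on rescaled FPKM, where GRIA3 was called too and only 6 of the 9 passed the FPKM minimum, and 1 to 2 when single libraries were left out, 2 without siPSF replicate 2 (GRIN2D, adjusted p = 0.049). GRIK5 was called lower (-0.31, adjusted p = 0.013) on rescaled FPKM alone. The median of the subunits was 0.019 and 0.082 with limma at the pseudocounts 0.5 and 0.1, over those 6. GRIK3 was at -0.0069 without TMM and at -0.073 with the replicate block, and between -0.28 and 0.47 when single libraries were left out; its kainate share difference was then -0.0088 to 0.244 percentage points. Context genes called higher numbered 2 without TMM, 1 with each limma fit and at an adjusted p under 0.01, 6 with DESeq2 and 1 to 6 when single libraries were left out (4 in the main comparison). Without TMM the median of all genes lay at -0.07 and 2274 genes were called lower and 831 higher, and on rescaled FPKM it lay at -0.16; differences on those scales are to be read against these shifts. Without siControl replicate 2, 928 genes were called lower and 572 higher, against 1628 and 1310 with all libraries.

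No pairing by replicate number was seen: deviations from the group means of same-numbered libraries correlated at -0.02, 0.06 and 0.06, and 0 of 3 numbers matched best. With 3 libraries per group, these correlations cannot exclude that same-numbered cultures were handled together. The fit with the replicate block called 3 subunits lower and 1 higher, and 1640 genes lower and 1389 higher over all genes; it called GRIN2C (adjusted p = 0.047) and lost GRIN3B (adjusted p = 0.070).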
